A study of Mus musculus with 5 samples.

Results

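Smooth muscle contractile and actin genes were followed in cultured mouse cardiac fibroblasts (CF) through 10 genes: Acta2, Tagln, Cnn1, Cnn2, Myl9, Tpm1, Tpm2, Tpm4, Actb and Actg1. They were found by name among the 20365 gene names of the count tables, and a single 3′ UTR interval stood for each gene, the one whose deposited CPM was highest on average across the labeled group. Each sample combined 2 wells of confluent CF, which came from adult male C57Bl/6J wildtype mice with healthy hearts. The labeled group (3 libraries) received 0.1 mM of the uridine analog 4-thiouridine (S4U) for 12 h, and the unlabeled group (2 libraries) spent the same 12 h in parallel without S4U. RNA of both groups was alkylated, and no sample carried a transgene, a deletion or an infarct. The study names 3 CF preparations for SLAMseq, but the sources do not tie the libraries, and the unlabeled ones in particular, to preparations or mice, so p-values measure the spread between these libraries.

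Fibroblasts that take on a contractile state, called myofibroblasts, build stress fibers from actin, tropomyosin and nonmuscle or smooth muscle myosin. Acta2, the smooth muscle alpha actin, is the marker most often used for this state, and Tagln (transgelin, SM22-alpha) and Cnn1 (calponin 1) bind actin filaments and are shared with smooth muscle cells. Many of these genes are read by serum response factor (SRF), which binds the CArG box in their promoters together with myocardin or its relatives Mrtfa and Mrtfb, and the relatives enter the nucleus when the pool of free actin falls. In SLAMseq, incorporated S4U is read as C in place of T, so the T>C conversion rate of a transcript, the conversions divided by its covered T positions, reports RNA made while S4U was present.

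CArG boxes in the promoters are shown because SRF is known to read many, though not necessarily all, of these genes through this element. RefSeq promoters (build GRCm38.p6, 250 bases before to 50 bases after the start) were given for 8 of the 10 genes, not for Tagln and Actb, and all 8 were found unchanged in GRCm39, whose coordinates follow. The CArG box, searched by its name's consensus on both strands, occurred in 1.63% of 32851 promoters, and a box with 1 G or C inside its A/T core in 8.50%. Exact boxes (in capitals) stood in Cnn2 56 bases before the start (chr10:79824368-79824397, + strand), in Myl9 161 bases before it (chr2:156617213-156617242, + strand) and in Actg1 90 bases before it (chr11:120239392-120239421, - strand).
Cnn2: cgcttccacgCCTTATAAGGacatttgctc
Myl9: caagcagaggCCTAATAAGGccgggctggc
Actg1: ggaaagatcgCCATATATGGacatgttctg
Boxes with 1 G or C inside stood in Acta2 84 and 34 bases before the start (chr19:34232838-34232867 and chr19:34232788-34232817, - strand) and in Myl9 99 bases before it (chr2:156617275-156617304, + strand).
Acta2, first: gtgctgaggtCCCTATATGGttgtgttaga
Acta2, second: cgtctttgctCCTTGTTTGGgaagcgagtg
Myl9: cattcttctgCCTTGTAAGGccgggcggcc
Neither form was found in these windows of Cnn1, Tpm1, Tpm2 and Tpm4, and TATAAA (13.6% of promoters) was in none of the 8. The letters CATTCC, the motif bound by TEAD factors, were found on either strand in 14.7% of promoters, among them those of Acta2 and Tpm1. Matches describe the sequence only.

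The cells carried fibroblast markers. Col1a1, the alpha 1 chain of type I collagen and the highest of 8 fibroblast markers, reached 13036 ± 270 RPM (reads per 1000000 counted reads, SD, n = 3) in labeled libraries, and none of the 8 was at 0. The list summed to 29996 to 33086 RPM in labeled and 23099 and 27112 in unlabeled libraries. All labeled libraries lay above both unlabeled ones for 1 of the 8, Col1a1, where 8.21% of all genes did so. They lay below both for 2 of the 8, Pdgfra and Ddr2, named after their values were seen (13.1% of all genes). Of 10 smooth muscle and pericyte markers the highest was Notch3, a receptor of vascular mural cells, at 11.4 to 82.3 RPM, and the counted interval of Myh11, the smooth muscle myosin heavy chain, held no read in any library. The summed level of this list was 55.8 to 117 RPM in labeled and 58.6 and 147 in unlabeled libraries. In labeled replicates 1, 2 and 3 the list summed to 55.8, 100 and 117 RPM, the order that Acta2 had there. It was lowest in replicate 1 of each group, as Acta2 was. The list was highest in unlabeled replicate 2, where Acta2 was lower than in labeled replicates 2 and 3. The summed cardiomyocyte list (7 genes, highest Tnnt2, Ryr2 at 0) was at most 10.04 RPM and the epicardial list (5 genes, highest Wt1, Msln and Krt19 at 0) at most 7.90. The endothelial list (5 genes, highest Cdh5) summed to 113 to 204 RPM in labeled and 159 and 221 in unlabeled libraries, and the macrophage list (5 genes, highest Lyz2) to 36.2 to 73.6 and 35.8 and 70.3. Of the 5 endothelial genes, 0 had a log2 difference above 0, where 51.7% of all genes did. All labeled libraries lay below both unlabeled ones for 2 of these 5, where 13.1% of all genes did so. The study's isolation protocol spins down cardiomyocytes, depletes endothelial and immune cells with magnetic beads and discards a first digest that holds epicardial cells. The part of other cells in the levels that follow was not tested, and in such bulk samples fewer cells of a type and less RNA per cell cannot be told apart.

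With 1 interval for each gene, 506045 to 1842706 reads were counted in a library, fewest in labeled replicate 3, and levels are given as RPM, scaled to these counted reads. The deposited CPM divides by 10975173 to 14616278 reads per library and is named where it gives another order of the groups. The largest divisor, 14616278, fell on labeled replicate 3, the library with the fewest counted reads (506045). Relative to RPM, the deposited CPM is thus lowest in that library for every gene. Over all intervals the T>C rate was 0.0353, 0.0358 and 0.0356 in labeled and 0.00111 and 0.000652 in unlabeled libraries. The 10 genes took 0.719%, 1.03% and 1.12% of the reads of labeled replicates 1, 2 and 3, against 0.556% and 0.747% in unlabeled replicates 1 and 2. The highest unlabeled share thus lay above the lowest labeled one, and replicate 1 was the lowest of each group.

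The comparison of reads asked whether transcript levels differed between cells with and without S4U. All 10 genes passed the filter on low counts, and none differed by edgeR's quasi-likelihood test at an adjusted p below 0.05, which was also the case for 0 of 9806 genes tested (0%). At an unadjusted p below 0.05, Tagln and Cnn1 were higher in labeled libraries, 2 of 10, against 2.85% of all genes that were higher and 3.13% that were lower at that level. The levels of Tagln and Cnn1 were also the 2 of 10 whose labeled libraries all lay above both unlabeled ones (8.21% of all genes), and no member lay entirely below (13.1% of all genes). The fitted difference was above 0 for all 10 genes, with a median of 0.58 on the log2 scale against 0.02 over all genes, of which 51.7% were above 0. For Actg1, Cnn2, Tpm1 and Tpm4 that direction turned when 1 library was left out. The mean deposited CPM of Cnn2, Myl9, Tpm1, Tpm4 and Actg1 was lower in labeled than in unlabeled libraries. That scale lowers labeled replicate 3 for every gene, so this order is not particular to these genes.

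**Figure D1:**
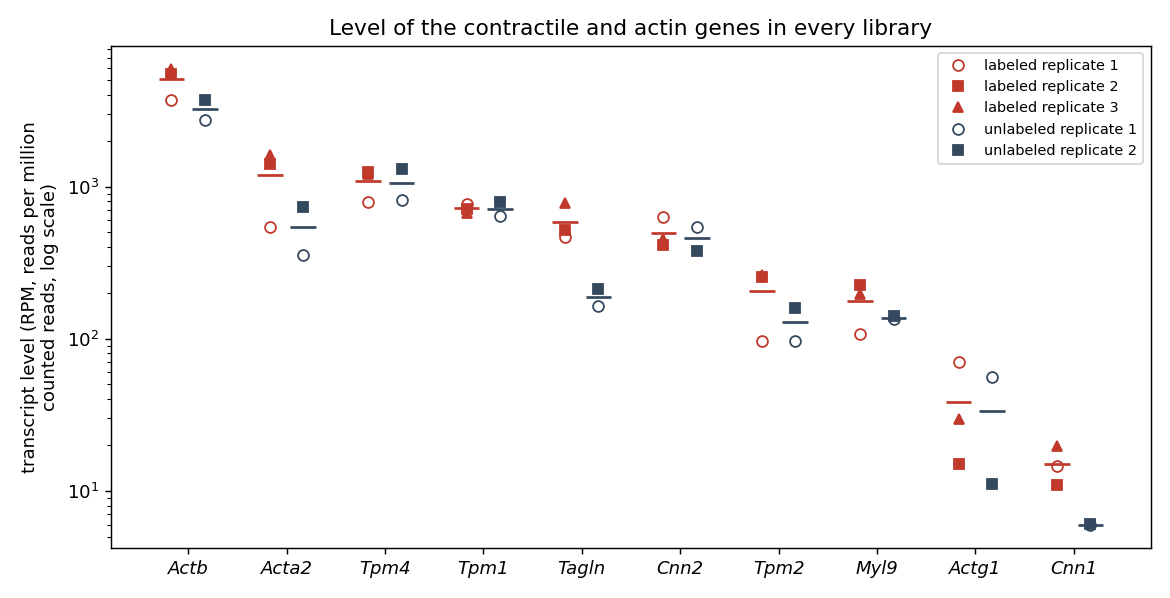
Transcript level of each gene (RPM, log axis) in the 3 labeled (red) and 2 unlabeled (dark) libraries, ordered by mean labeled level, with symbols for the replicate number and bars at group means. Only Tagln and Cnn1 have all labeled libraries above both unlabeled ones, and Actb lies highest at 3705 to 5958 RPM in labeled libraries.

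The calponin-like proteins bind along actin filaments. Tagln (ENSMUSG00000032085.7) was counted on chr9:45840926-45841668 (GRCm39, - strand), its 3′ UTR in the last exon, where exons of Gm48529 and Pcsk7 on the other strand cover 49.1% of the bases, and the library kit keeps strand. Its level was 468, 517 and 777 RPM in the labeled replicates and 164 and 211 in the unlabeled ones. The lowest labeled library was thus more than the highest unlabeled one, and the same held on the deposited CPM (26.9 to 61.7 against 19.1 and 20.8). The difference was 1.73 on the log2 scale (SE 0.35, 95% interval 0.90 to 2.55, edgeR adjusted p = 0.530), a ratio of mean levels of 3.13. With DESeq2 its adjusted p was below 0.05, the only member among 10 genes called higher of 12022 with an adjusted p (0.0832%).

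Cnn1, a calponin that restrains actomyosin and marks differentiated smooth muscle, was the least abundant of the 10. Its interval (ENSMUSG00000001349.7, chr9:22019528-22020024, + strand, 3′ UTR, partly facing Elof1 on the other strand) held 23, 13 and 10 reads in labeled and 11 and 6 in unlabeled libraries, or 14.6, 10.9 and 19.8 against 5.97 and 6.02 RPM. These groups did not overlap, but on the deposited CPM they did, with 0.684 to 1.93 in labeled and 0.547 and 0.759 in unlabeled libraries. The log2 difference was 1.35 (SE 0.50, 95% interval 0.18 to 2.53, edgeR adjusted p = 0.768), and so few reads leave it uncertain. Cnn2, the calponin of many nonmuscle cells (ENSMUSG00000004665.12, chr10:79830449-79831234, + strand, 3′ UTR), was at 629, 413 and 455 RPM in labeled and 543 and 375 in unlabeled libraries. Its groups overlapped, with a log2 difference of 0.20 (95% interval -0.47 to 0.87, adjusted p = 0.999).

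The actins are the filament subunits themselves. Acta2 (ENSMUSG00000035783.11, chr19:34217736-34219066, - strand, 3′ UTR, partly facing Stambpl1) was at 539, 1411 and 1618 RPM in the labeled replicates and at 353 and 740 in the unlabeled ones. Labeled replicates 2 and 3 lay above both unlabeled libraries, and labeled replicate 1 lay between these. On the deposited CPM (71.1, 119.6 and 56.03 against 44.8 and 67.2) labeled replicates 1 and 2 lay above and labeled replicate 3 lay between. The log2 difference of 1.19 (SE 0.57, 95% interval -0.14 to 2.53, edgeR adjusted p = 0.893) did not pass the test, and it was 0.72 without unlabeled replicate 1 and 1.89 without unlabeled replicate 2. The labeled mean was 1189 ± 573 RPM (SD, n = 3).

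Actb, the cytoplasmic beta actin, was the most abundant of the 10 and lay above 99.9% of all genes tested. Its level (ENSMUSG00000029580.16, chr5:142888870-142889552, - strand, 3′ UTR) was 3705, 5525 and 5958 RPM in labeled and 2755 and 3725 in unlabeled libraries. The groups touched, since labeled replicate 1 was just under unlabeled replicate 2, and the log2 difference was 0.72 (SE 0.33, 95% interval -0.05 to 1.49, edgeR adjusted p = 0.868). On the deposited CPM, labeled replicates 1 and 2 (489 and 468) lay above both unlabeled libraries (350.1 and 338) and labeled replicate 3 (206) under both. In many experiments Actb serves as a reference gene, and here its level was 5063 ± 1195 RPM (SD, n = 3) in labeled libraries.

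Actg1, the cytoplasmic gamma actin, was counted on few reads: 111, 18 and 15 in labeled and 103 and 11 in unlabeled libraries (ENSMUSG00000062825.17, chr11:120236513-120237215, - strand, 3′ UTR). As a level this was 70.4, 15.1 and 29.6 against 55.9 and 11.04 RPM, so replicate 1 was the highest of both groups and the groups overlapped. A search of the genome with the interval found 12 other stretches of at least 65 bases and 90% identity, which together match 99.7% of it, the best at 99.9% identity. The tables list 0 reads with several mapping places in all their rows, so how reads shared with these copies were treated cannot be seen, and the level of Actg1 is uncertain. The same search gave 2 other matches for Tpm4 (99.7% of its interval, best at 94.6%), 1 for Actb (38.2%, 90.3%) and none for the other 7 genes. Of the last 200 bases of the interval, at the end that the kit reads, these matches covered 98% in Tpm4 and 94% in Actb. How reads shared with these less similar copies were treated cannot be seen either.

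Tropomyosins lie along the actin filament and govern the access of myosin. Tpm1 (ENSMUSG00000032366.17, chr9:66929872-66931773, - strand, 3′ UTR, partly facing Gm30639) was at 766, 715 and 674 RPM in labeled and 639 and 792 in unlabeled libraries, a narrow range that the deposited CPM did not share (101, 60.7 and 23.3 against 81.2 and 71.9). Its log2 difference was 0.08 (95% interval -0.50 to 0.65, adjusted p = 0.999), which leaves room for a change of that size in either direction. Of 7 intervals listed for Tpm1, the last 769 bases of the 3′ UTR took 96.5% to 99.5% of its reads, 338 to 1204 per library, and the alternative 3′ end upstream (starting at 66935172) took 3 to 14. Reads of Tpm1 thus came almost alone from the distal end in labeled and in unlabeled libraries.

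Tpm4, a tropomyosin of nonmuscle cells (ENSMUSG00000031799.12, chr8:72905669-72906986, + strand, 3′ UTR, facing an intron of Gm26586), was at 794, 1254 and 1219 RPM in labeled and 815 and 1313 in unlabeled libraries. The groups covered the same range, with a log2 difference of 0.10 (95% interval -0.72 to 0.93, adjusted p = 0.999). Tpm2, the beta tropomyosin of muscle (ENSMUSG00000028464.18, chr4:43513726-43515920, - strand, 55.8% of it annotated as exon), was at 97.1, 256 and 261 against 97.1 and 160 RPM. Labeled replicates 2 and 3 lay above both unlabeled libraries and labeled replicate 1 was level with the lower of them, with a log2 difference of 0.74 (SE 0.50, 95% interval -0.44 to 1.93, adjusted p = 0.989). On the deposited CPM of Tpm2 (12.8, 21.7 and 9.03 against 12.3 and 14.5) labeled replicate 3 lay under both unlabeled libraries.

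The counted interval of Tpm2 joins 2 annotated 3′ ends and the stretch between them. By subtraction, the stretch between the ends held 6, 87 and 27 reads in labeled and 17 and 32 in unlabeled libraries, 3.92%, 28.4% and 20.5% against 9.50% and 20.1% of the interval's reads. It was lowest in replicate 1 of each group. The more proximal end held 1 read in labeled replicate 2 and none elsewhere.

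Myl9, the regulatory light chain whose phosphorylation switches on smooth muscle and nonmuscle myosin, was at 107, 224 and 198 RPM in labeled and 134 and 141 in unlabeled libraries (ENSMUSG00000067818.8, chr2:156623083-156623577, + strand, 3′ UTR, facing 5730471H19Rik). Labeled replicate 1 was the lowest and labeled replicates 2 and 3 the highest of the 5, whereas on the deposited CPM (14.1, 19.01 and 6.84 against 17.04 and 12.8) labeled replicate 3 was the lowest. The log2 difference was 0.44 (SE 0.37, 95% interval -0.43 to 1.30, adjusted p = 0.999).

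**Figure D2:**
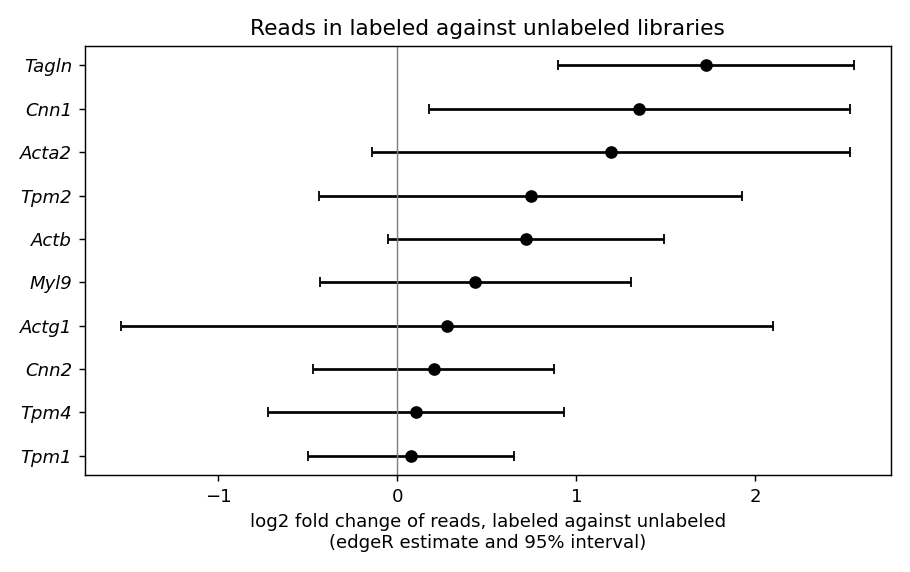
edgeR log2 fold change of reads in labeled against unlabeled libraries (points) with its 95% interval (lines), ordered by size. The intervals of Tagln (0.90 to 2.55) and Cnn1 (0.18 to 2.53) lie above 0 before any adjustment for the number of genes tested, and those of the other 8 genes include 0.

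Levels of different genes were set side by side per kilobase of the counted interval, as a description, since the library kit reads the 3′ end and its counts need not grow with length. On this scale the order in labeled libraries was Actb (7413 RPM per kilobase), Acta2 (894), Tpm4 (826), Tagln (790), Cnn2 (635), Tpm1 (378), Myl9 (356), Tpm2 (93.2), Actg1 (54.6) and Cnn1 (30.3). The cytoplasmic beta actin thus lay far above the smooth muscle actin, and Cnn1 was at the bottom. On the level without length, where the SD over labeled libraries is known, neighbours in the order differed by more than the larger SD at 4 places: Actb above Acta2, Tpm4 above Tpm1, Cnn2 above Tpm2 and Myl9 above Actg1, whose level is uncertain because of its near copies. The other 5 neighbouring pairs, such as Acta2 and Tpm4, did not differ beyond their spread.

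The comparison of T>C rates asked which transcripts carried RNA made during the labeling. The rate was higher in labeled than in unlabeled libraries for all 10 genes by the beta-binomial test (p from 1.11e-08 for Tpm4 to 0.00324 for Cnn1), as it was for 94.6% of the 19240 intervals tested, so this count does not set the genes apart. A depth of 1000 or more covered T in every library was reached by 3156 intervals of 2108 genes. In these the median labeled rate was 0.0390, with the middle 50% between 0.0349 and 0.0424, and the median unlabeled rate was 0.000499. Of the 10 genes, 8 reached that depth, and 4 of these (Tagln, Tpm1, Actb and Tpm4) lay above the median and 4 (Cnn2, Acta2, Tpm2 and Myl9) under it. Cnn1 and Actg1 had as few as 131 and 81 covered T positions in a library.

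**Figure D3:**
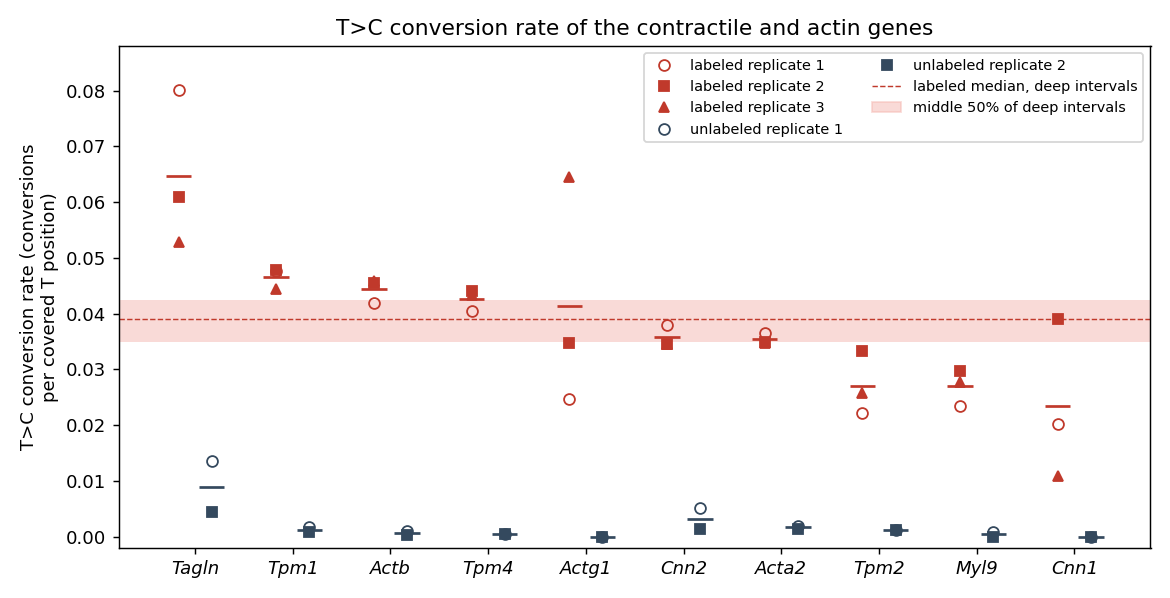
T>C conversion rate (conversions per covered T position) of each gene in the 3 labeled (red) and 2 unlabeled (dark) libraries, ordered by mean labeled rate, with bars at group means and the median and middle 50% of the labeled rates of intervals with 1000 or more covered T in every library. Tagln lies above the band in all 3 labeled libraries and is the highest of the genes within each unlabeled library, while Myl9 and Tpm2 lie under the band.

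Tagln had the highest rate, at 0.0801, 0.0608 and 0.0529 in the labeled replicates, a mean of 0.0646 ± 0.0140 (SD, n = 3). Its mean was higher than that of every other one of the 3156 deep intervals. Its rate without S4U was also high, at 0.0136 (74 conversions in 5454 covered T positions) and 0.00433 (18 in 4158), above 99.9% and 99.5% of the deep intervals of these libraries. In the unlabeled libraries 76 of 302 and 19 of 210 Tagln reads carried a conversion, close to 1 conversion per converted read (0.974 and 0.947), whereas labeled libraries had 1.64 to 1.67 per converted read. With the unlabeled mean subtracted the rate of Tagln was 0.0556, the fourth highest of the deep intervals, whose median was then 0.0383. What raised the unlabeled rate was not tested. The lowest labeled rate still lay above the higher unlabeled one.

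Tpm1 followed with 0.0477, 0.0478 and 0.0444 (mean 0.0466 ± 0.00197, SD, n = 3), above 94.9% of the deep intervals. Actb at 0.0419, 0.0454 and 0.0459 (0.0444 ± 0.00219) and Tpm4 at 0.0404, 0.0440 and 0.0434 (0.0426 ± 0.00192) lay above 87.4% and 76.8% of them. Tpm1 and Actb differed by about 1 SD and not in the same order in every library. Without S4U these 3 genes were at 0.000278 to 0.00165.

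Acta2 was the gene with the closest agreement between labeled libraries, at 0.0365, 0.0349 and 0.0348 (0.0354 ± 0.000946, SD, n = 3), although its level differed between the same libraries from 539 to 1618 RPM. Its rate lay above 27.0% of the deep intervals, or 23.5% of them with the unlabeled mean subtracted, and was 0.00196 and 0.00132 without S4U. Cnn2, at 0.0380, 0.0346 and 0.0346 (0.0357 ± 0.00197), did not differ from Acta2 beyond the spread, and its unlabeled rate of 0.00514 in replicate 1 was above 98.7% of the deep intervals. With the unlabeled mean subtracted, Cnn2 lay above 20.1% of the deep intervals.

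Tpm2 at 0.0222, 0.0332 and 0.0257 (0.0270 ± 0.00566, SD, n = 3) and Myl9 at 0.0234, 0.0297 and 0.0277 (0.0269 ± 0.00321) had the lowest rates at this depth, above 11.5% and 11.4% of the deep intervals. Both lay under Acta2 in all 3 labeled libraries, by more than the spread between them, and did not differ from each other. Without S4U, Tpm2 was at 0.00114 and 0.00109. Myl9 had 2 conversions in 2277 covered T positions of unlabeled replicate 1 and 0 in 1984 of replicate 2, which allows a rate of up to 0.00151 (3 counts, counting error only).

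The 2 genes with few reads gave wide ranges. Cnn1 was at 0.0203, 0.0390 and 0.0109 in labeled libraries, on 9, 9 and 2 conversions, and at 0 of 227 and 0 of 131 covered T positions without S4U, which allows up to 0.0132 and 0.0229. Actg1 was at 0.0247, 0.0347 and 0.0645, on 22, 5 and 8 conversions, and at 0 of 818 and 0 of 81, which allows up to 0.00367 and 0.0370. Their place in the order cannot be told from these libraries.

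**Figure D4:**
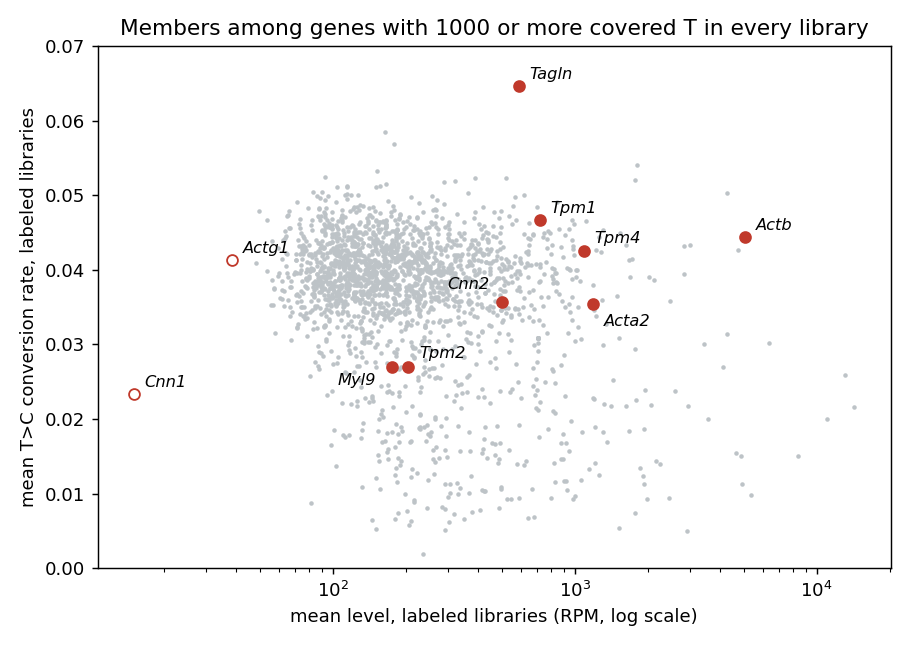
Mean T>C conversion rate against mean level (RPM, log axis) in the labeled libraries for 2103 genes whose counted interval had 1000 or more covered T in every library (grey), with the 10 genes in red and open symbols for Cnn1 and Actg1, which are under that depth. Tagln (0.0646) lies above the other genes, Tpm1, Actb and Tpm4 in the upper part and Tpm2 and Myl9 in the lower part of the main cloud.

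The number of covered T positions per read was lower in replicate 1 of both groups for some of the genes. For Actb it was 11.6, 20.1 and 19.5 in labeled and 11.5 and 18.4 in unlabeled libraries, and for Cnn2 7.86, 12.3 and 11.7 against 7.98 and 12.2. Myl9 (8.39, 13.8 and 13.7 against 9.22 and 14.2) and Tpm2 (9.44, 12.4 and 11.5 against 9.78 and 11.5) showed the same, while Tpm4 stayed at 26.5 to 28.8 and Acta2 at 21.1 to 23.7. Over all genes tested the median was 18.4, 20.9 and 21.0 in labeled and 19.4 and 21.6 in unlabeled libraries. The share of reads with a conversion depends on this number: for Actb it was 35.8%, 54.0% and 52.9% in labeled libraries, a wider spread than that of its rate. For Tpm4 it was 61.5%, 65.2% and 63.4%, for Tpm1 59.2%, 61.1% and 61.0%, for Acta2 49.6%, 48.8% and 45.8% and for Tagln 77.6%, 68.3% and 59.8%.

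Splitting each level into reads with and without a conversion separated reads that carry the mark from the rest. The split is not one of new and old RNA, since reads of new RNA can lack a conversion and reads without S4U can carry one, most of all in Tagln (25.2% and 9.05% of its unlabeled reads). Acta2 had 267, 688 and 741 RPM of converted reads and 272, 723 and 877 unconverted ones, so both parts differed between labeled libraries in the same order. The unconverted part of Acta2 in labeled replicates 2 and 3 lay above that of both unlabeled libraries (337 and 717). Tagln had 363, 353 and 464 RPM of converted and 105, 164 and 312 RPM of unconverted reads, and its unconverted part overlapped with the 123 and 192 of the unlabeled libraries. For Tpm1 (312, 279 and 263 unconverted against 616 and 778) and Tpm4 (306, 437 and 447 against 806 and 1298) the unconverted part was lower in every labeled than in any unlabeled library. Reads that gain a conversion leave this part by definition. The share of all genes with such a gap was not determined, so the gap does not set these genes apart.

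**Figure D5:**
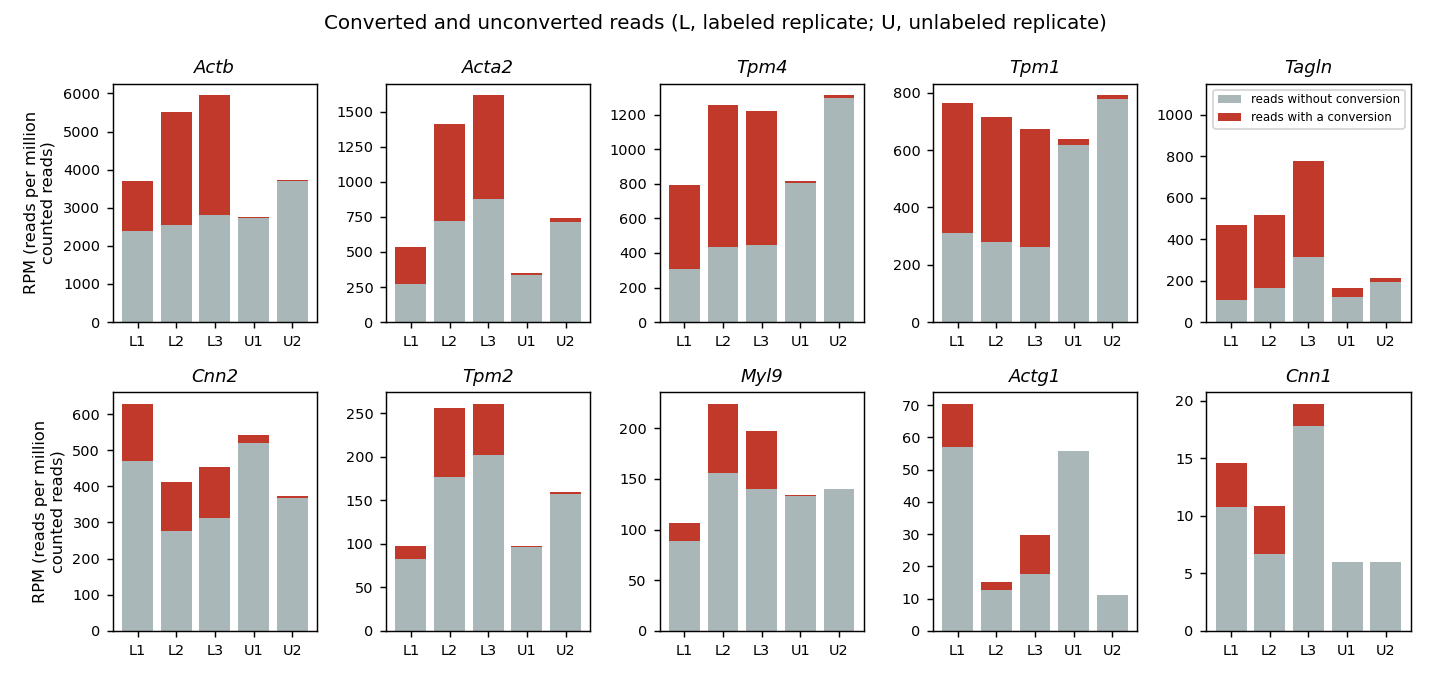
RPM of reads with a T>C conversion (red) and without (grey) for each gene in labeled replicates 1 to 3 (L1 to L3) and unlabeled replicates 1 and 2 (U1, U2), each panel with its own axis from 0. Unconverted Tpm1 and Tpm4 reads are fewer in every labeled library than in either unlabeled one, while those of Acta2 and Tagln overlap between groups. The share of all genes with such a gap was not determined.

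The sequence ATTTA, the core of the AU-rich elements that shorten the life of some transcripts, was found by searching the sense strand of the intervals, and 55.9% of all intervals held it. It occurred 6 times in Tpm1, 5 times in Acta2, 2 times each in Tpm4 and Actg1, 1 time in Actb and not in Tagln, Cnn1, Cnn2, Myl9 or Tpm2.

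Of 40 other contractile and actin genes, 34 passed the filter on low counts and 0 differed in reads at an adjusted p below 0.05 by edgeR's test or by DESeq2. Their median log2 difference was 0.05 and 19 of 34 were above 0. At an unadjusted p below 0.05, 0 were higher and 4 were lower in labeled libraries, beside 2.85% and 3.13% of all genes, and the 4 are named here after their values were seen: Mylk, the kinase that phosphorylates Myl9 (log2 -1.76, SE 0.39, adjusted p = 0.543), Myh10, nonmuscle myosin IIB (-1.15, SE 0.28, adjusted p = 0.557), Synpo2, an actin bundling protein (-1.12, SE 0.32, adjusted p = 0.631), and Rock2, a kinase that promotes actomyosin contraction (-0.80, SE 0.28, adjusted p = 0.745). For Mylk the levels were 64.1, 30.1 and 45.5 RPM against 213 and 121. All labeled libraries lay above both unlabeled ones for 4 of the 34 and below for 7, where 8.21% and 13.1% of all genes did so.

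The most abundant of the list were Vim, the intermediate filament protein vimentin (2821 ± 200.99 RPM, SD, n = 3), Tmsb4x, which binds actin monomers (1957 ± 218), and Actn1, the filament crosslinker alpha-actinin 1 (1634 ± 373). The T>C rate was raised in all 33 genes of the list that had a covered T in every library, beside 94.6% of all intervals. At 20 genes of the depth named above its median was 0.0379, highest in Cald1, the actin-binding caldesmon (0.0449 ± 0.00296), and lowest in Myl12b, a regulatory light chain of nonmuscle myosin (0.0238 ± 0.00553). Myl12b thus lay as low as Myl9, its smooth muscle relative. Myl12a of the same list, named after its values were seen, was higher at 0.0308 ± 0.00219.

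Of the factors that read the CArG box, Srf was at 43.1, 56.9 and 59.3 RPM in labeled and 29.8 and 53.2 in unlabeled libraries, Mrtfa at 68.5, 30.1 and 29.6 against 62.4 and 16.1, and Mrtfb at 58.4, 41.0 and 53.4 against 72.2 and 53.2. None of the 3 differed in reads (adjusted p = 0.999 for each), and the groups overlapped for each. Myocd, the muscle member of the family, had 4, 1 and 1 reads in labeled and 0 and 1 in unlabeled libraries and did not pass the filter. The labeled T>C rates of Srf (0.0415 ± 0.00405), Mrtfa (0.0375 ± 0.00721) and Mrtfb (0.0478 ± 0.00563, SD, n = 3 each) rested on under 1000 covered T positions in at least 1 library.

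The myofibroblast matrix list held 12 genes, all of which passed the filter. At an adjusted p below 0.05, edgeR's test called 0 of them and DESeq2 called 2 (Thbs1 and Tnc), both higher in labeled libraries. Among all genes DESeq2 called 10 of 12022 higher (0.0832%). The median log2 difference of the list was 0.49, and 11 of 12 were above 0. At an unadjusted p below 0.05, 5 were higher and 0 were lower in labeled libraries, beside 2.85% and 3.13% of all genes: Col1a1 (0.57, SE 0.23, adjusted p = 0.810), Thbs1, which encodes the matrix protein thrombospondin 1 (1.64, SE 0.26, adjusted p = 0.434), and, named after their values were seen, Tnc (tenascin C, 2.29, SE 0.37, adjusted p = 0.434), Ccn2 (connective tissue growth factor, 1.06, SE 0.25, adjusted p = 0.546) and Lox (the collagen crosslinking enzyme lysyl oxidase, 0.64, SE 0.23, adjusted p = 0.768). All labeled libraries lay above both unlabeled ones for 5 of the 12 and below for 0, where 8.21% and 13.1% of all genes did so. The 5 were the same genes that passed the unadjusted p, which rests on the same separation of the groups. Col3a1 (8336 ± 791 RPM) and Fn1 (4620 ± 419), which with Col1a1 were the most abundant, had groups that overlapped.

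The median T>C rate was 0.0261 over 9 matrix genes of the depth named above and 0.0392 over the 8 contractile and actin genes, given as a description. The matrix genes spanned a wide range, with Ccn2 at 0.0434 and Tnc at 0.0430, above Tpm4. It was highest in Thbs1 (0.0540 ± 0.00220, SD, n = 3) and lowest in Col3a1 (0.0151 ± 0.00143). The rate of Tagln was above that of Thbs1, and those of Myl9 and Tpm2 were close to that of Col1a1 (0.0259 ± 0.00199). Of the 12, 11 were raised by the beta-binomial test, and Fap was not (p = 0.0723), a share near the 94.6% of all intervals.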

How the data were processed

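SLAMseq libraries of CF, 3 labeled and 2 unlabeled by the submitters' labels, were analysed. The authors used SLAM-DUNK 0.4.3 and the mm39 genome to map 3′ end reads, removed duplicates by unique molecular identifiers and deposited, for 40428 distinct 3′ UTR intervals, raw counts of reads, converted reads, covered T positions and conversions. The deposited conversion rate is a fraction (conversions per covered T). The deposited CPM is the read count scaled by 1 total per library, which exceeds the counted reads. Repeated rows were used once. T content matched GRCm39 in 40380 of 40380 intervals.

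Rates were compared by a two-sided likelihood-ratio test of a beta-binomial model (1 overdispersion for all libraries), on every interval with a covered T in each library, at an unadjusted p below 0.05 as in the study's methods. Read counts, 1 interval for each gene, were tested in edgeR 4.0.16 (quasi-likelihood, TMM, filterByExpr, Benjamini-Hochberg over all genes). Alternatives used DESeq2 1.42.0, limma 3.58.1 on log odds (pseudocount 0.5), RLE size factors, no filter, summed intervals, a replicate block and each library left out. On simulated data with 200 of 9806 genes changed by 2 on the log2 scale, edgeR recovered 118 with 3 false calls. The beta-binomial test recovered 94% of 200 changed intervals among 2000 and called 5.17% of the unchanged ones. Both simulations used a common dispersion and no shared replicate effect, and the simulated intervals all had the same unlabeled rate. Recovery and false calls in the real data can therefore differ from these values. Genome matches came from blastn 2.17.0. Other software was samtools 1.23.1, matplotlib 3.10.9, pandas 2.3.3, scipy 1.17.1, numba 0.67.0, numpy 2.4.6, Python 3.11.15 and R 4.3.3.

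The members and lists were chosen with earlier results of these data known. The genes named are the 10 members. From the 40 other contractile genes they are Srf, Mrtfa, Mrtfb and Myocd, the 3 with the highest level, the highest and lowest rate at 1000 or more covered T, and any with an adjusted p below 0.05. From the matrix list they are the 3 with the highest level and the highest and lowest rate, and from each marker list the highest marker and those at 0. Exceptions are marked in the text. Results for some items are not reported here.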

Additional observations from a re-analysis of the deposited data

How the results depend on the processing

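The count of members with a raised T>C rate stayed at 10 of 10 with Benjamini-Hochberg adjustment, with limma on the log odds and without any 1 library (10 to 10), and was 8 of 8 with 1000 or more covered T. The count with changed reads was 0 in edgeR and stayed at 0 with RLE size factors, no filter, summed intervals and without any 1 library (0 to 0). It was 1 with DESeq2 (Tagln). Whether equal replicate numbers mean cells prepared together is not given in the labels, so the pairing of numbers was used only here. The deviations of replicates 1 and of replicates 2 from their group means correlated at 0.784 and 0.638, but with 2 unlabeled libraries their deviations mirror each other, and labeled replicate 3 correlated with unlabeled replicate 2 at 0.482. With the replicate block, 3 members passed (Tagln 1.46, Acta2 0.82 and Actb 0.55 on the log2 scale), among 1146 of 9806 genes (11.7%), 529 higher and 617 lower. Of the other contractile genes 3 were then higher and 6 lower, and of the matrix genes 6 higher and 0 lower. Tpm4 turned to -0.00136 in that fit. Without 1 library the log2 difference ranged from -0.60 to 1.84 for Actg1, from -0.00600 to 0.44 for Cnn2, from -0.11 to 0.29 for Tpm1 and from -0.24 to 0.55 for Tpm4. It kept its direction but moved by over 1.5 times for Acta2 (0.72 to 1.89), Actb (0.48 to 1.01), Tpm2 (0.38 to 1.20) and Myl9 (0.23 to 0.71), lowest without unlabeled replicate 1 and, for Myl9, without labeled replicate 2. The cause was not tested. With the unlabeled mean subtracted, Acta2 and Cnn2 moved under the middle 50% of the deep intervals. Depth limits Cnn1 and Actg1 most, with at most 23 and 111 reads in a library.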
